A study of Mus musculus with 18 samples.

Results

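Ring1a/b-dKO mouse embryonic stem cells, which carry knockouts of both Ring1a and Ring1b, were set against WT embryonic stem cells. Each group had 3 libraries, and these 6 libraries are part of 18 in the series, which also holds Ring1a-KO, Ring1b-KO, Pcgf-4KO (Pcgf1, Pcgf3, Pcgf5 and Pcgf6 knocked out) and Pcgf-6KO (all 6 Pcgf genes knocked out) with 3 libraries each. The libraries were chosen by the genotype label, and no measured value entered the choice. Total RNA was sequenced from embryonic stem cells taken off the plate with trypsin. The labels name no allele, clone, sex, passage or medium. Whether replicate libraries are separate cultures is also not stated, so each p-value measures the spread between these libraries, which may be technical. Levels are in TPM as deposited, each gene's length-corrected share of its library's transcripts on a fixed total. Two-sided tests were made with limma on log2(TPM + 1) over 17842 genes, and "rose" and "fell" are used only at a Benjamini-Hochberg adjusted p under 0.05.

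Polycomb repressive complex 1 (PRC1) is a family of chromatin complexes that place ubiquitin on histone H2A and compact chromatin at the promoters of silent genes. The catalytic subunit is Ring1a (gene Ring1) or Ring1b (gene Rnf2), paired with a Pcgf protein. Canonical PRC1 carries a Cbx protein, which reads the mark that PRC2 places on histone H3, and a Phc protein, which can polymerise. Variant PRC1 carries Rybp or Yaf2 in place of Cbx, and its Pcgf6 and Pcgf3/5 forms are recruited through DNA-binding partners. Without both Ring1 proteins no form of PRC1 has its catalytic core. In embryonic stem cells PRC1 is best known for holding Hox and other lineage regulators, and germline genes, silent.

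The targeted genes were examined first. Rnf2 (ENSMUSG00000026484, chromosome 1, 151458004 to 151500955, GRCm38) was at 24.7, 24.2 and 19.4 TPM in the double-knockout libraries, against 76.4, 71.5 and 65.9 TPM in WT libraries, and fell (log2 fold change -1.61 ± 0.08, adjusted p = 1.29e-10). All 3 double-knockout libraries were far below WT. The other target is Ring1 (ENSMUSG00000024325, chromosome 17, 34020792 to 34024680), with 2.74, 6.12 and 9.40 TPM in the double-knockout libraries, against 7.42, 7.10 and 7.11 TPM in WT libraries. The Ring1 values of the groups overlapped and the difference did not pass the test (log2 fold change -0.33 ± 0.28, adjusted p = 0.311). Double-knockout replicates 1 and 2 were below the WT libraries and replicate 3 was above them. Without double-knockout replicate 3 the Ring1 difference was -0.67 (adjusted p = 0.0303 in limma's test), and without replicate 1 it was 0.07. The sources used here do not say which exons were removed, so the level of the remaining transcript does not show whether a protein was made.

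The embryonic stem cell identity of both groups was checked on 8 markers. Pou5f1, the core pluripotency factor Oct4, was at 612, 583 and 581 TPM in the double-knockout libraries and 1116, 1101 and 1119.7 TPM in WT libraries, and none of the 8 markers was near 0 in any library. Their summed level was 2876 to 3193 TPM in the double knockout and 4529 to 4593 TPM in WT (exact two-sided permutation p = 0.1, the smallest that 3 against 3 libraries can give). Markers of other cells summed to far less. The 12 fibroblast markers, which would mark feeder cells, summed to 26.8 to 29.4 TPM in the double knockout and 15.9 to 18.7 TPM in WT. Of the 5 that were tested, Thy1 was at 13.3, 15.7 and 14.1 TPM in the double knockout and 11.2, 10.8 and 13.4 TPM in WT, and Pdgfrb at 3.09, 2.86 and 3.19 TPM in the double knockout and 0.18, 0.13 and 0.19 TPM in WT. The others, Col1a1, Col6a1 and Col6a2, were at most 4.16 TPM in any library, while Col1a2, Col3a1, Dcn, Lum, Postn, Fap and Dpt were each under 1 TPM in all 6 libraries. Lum was listed at 0 in the 3 double-knockout libraries. The part of such cells in the rises below was not tested. The 12 blood and endothelial markers summed to 40.8 to 43.0 TPM in the double knockout and 58.7 to 59.2 TPM in WT. Of the 8 that were tested 2 rose, 3 fell (Tek and Kdr among them) and 3 were not called. Ptprc, Cdh5, Hbb-bh1 and Hbb-y did not pass the filter and were at 0.35 TPM or less in all 6 libraries. The 8 hepatocyte and yolk sac markers summed to at most 2.51 TPM in any library, with Alb, Ttr and Fgb at 0.03 TPM or less. In bulk RNA, fewer cells that make a transcript and less of it per cell cannot be told apart.

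**Figure D1:**
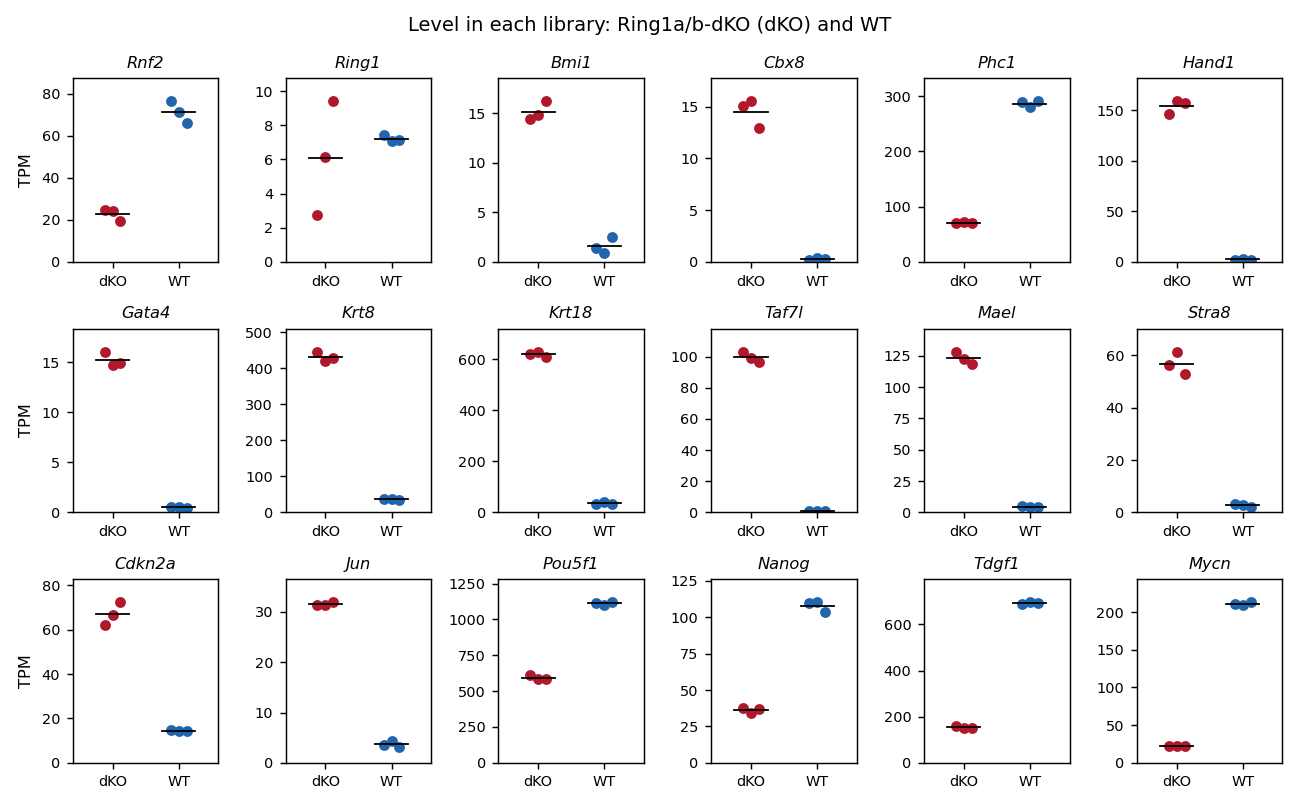
TPM (linear axis from 0) of 18 genes in each library, with the 3 Ring1a/b-dKO libraries on the left in red and the 3 WT libraries on the right in blue, and the group mean as a black line. The groups overlap for Ring1 alone among these genes, and Krt18 stands at 608 to 629 TPM in the double knockout against 33.4 to 40.0 TPM in WT.

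Most of the transcriptome differed between the groups. Of 17842 genes tested, 8677 (48.6%) rose and 2812 (15.8%) fell, 64.4% in all. Changes of at least 2-fold were fewer, with 3036 genes higher (17%) and 508 lower (2.85%). Among genes that were high in WT falls outnumbered rises, and among low genes rises outnumbered falls. Of 1376 genes at 100 TPM or more in WT, 318 rose and 650 fell, with a median log2 fold change of -0.12. Of 3622 genes under 1 TPM in WT, 2012 rose (55.5%) and 44 fell (1.21%). Such genes had little room to fall, and many passed the minimum of 1 TPM in 3 libraries only through knockout libraries, so their count of rises was partly set by the filter. Of 14220 genes at 1 TPM or more in WT, 6665 rose (46.9%) and 2768 fell (19.5%).

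TPM measures shares, and the scaling decided much of the split between rises and falls. The median log2 fold change over all tested genes was 0.28 on the deposited TPM, 0.00 after median ratio scaling and -0.03 after quantile normalization. Rises made up 75.5% of called genes on the deposited TPM, 50.6% (5816 higher, 5678 lower) after median ratio scaling and 48.2% (5329 higher, 5730 lower) after quantile normalization. The 100 most abundant genes held 34.2% to 34.7% of all TPM in the double knockout and 37.96% to 38.2% in WT. Each gene list below is therefore read against the median of 0.28. Its counts are read against the 48.6% of all tested genes that rose and the 15.8% that fell. At least 1 TPM was reached by 15807, 15835 and 15820 genes in the double-knockout libraries and 14225, 14207 and 14208 genes in WT libraries.

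**Figure D2:**
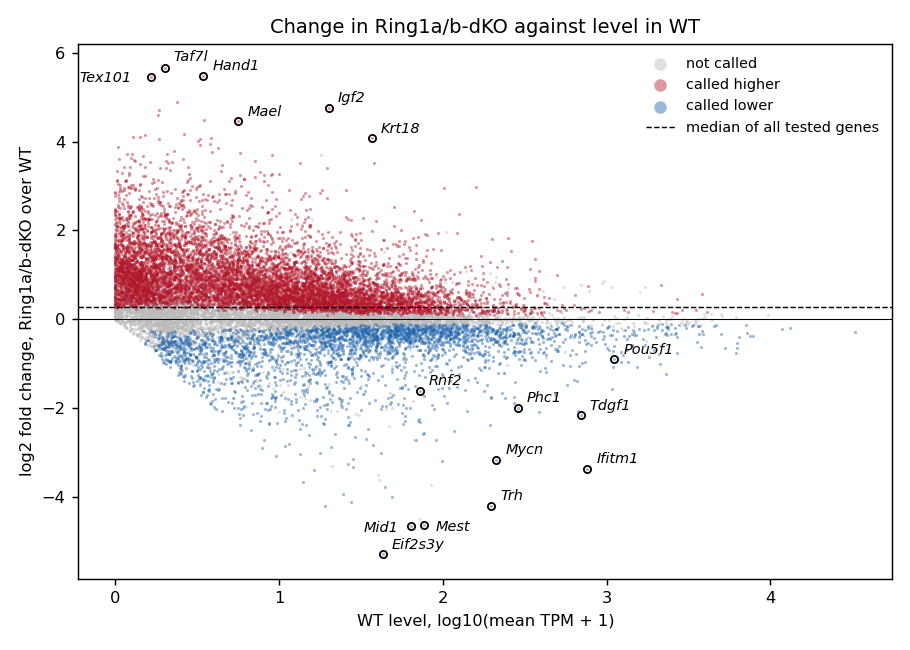
Each point is 1 of 17842 tested genes, with the WT level as log10(mean TPM + 1) on the x axis and the log2 fold change of Ring1a/b-dKO over WT on the y axis. Red genes rose, blue genes fell, grey genes were not called, and the dashed line is the median of all tested genes, 0.28.

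The PRC1 core list was measured next. Of its 18 subunit genes, 11 rose, 4 fell and 3 were not called, beside 48.6% of all tested genes that rose. These counts include the targeted genes, with Rnf2 among the falls and Ring1 among those not called. The median log2 fold change of the 18 was 0.82. Cbx8 was at 15.1, 15.5 and 12.98 TPM in the double-knockout libraries, against 0.18, 0.33 and 0.24 TPM in WT libraries (log2 fold change 3.63 ± 0.17, adjusted p = 4.73e-11). Cbx8 encodes a canonical PRC1 chromodomain protein, was under 1 TPM in every WT library, and lies near Cbx2 on chromosome 11. Cbx2 itself rose to 41.6 ± 1.05 TPM in the double knockout, against 16.3 ± 0.40 TPM in WT (mean ± SD, n = 3 each, here and below). Cbx7, the most abundant of these Cbx genes in WT, was at 199.5 ± 8.46 TPM in the double knockout and 175 ± 3.69 TPM in WT and was not called, and Cbx6 rose by 0.81 on the log2 scale.

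Pcgf genes, which define the PRC1 types, moved unequally. Bmi1 (ENSMUSG00000026739, chromosome 2, 18677018 to 18686629), which encodes Pcgf4, was at 14.4, 14.8 and 16.2 TPM in the double-knockout libraries, against 1.43, 0.88 and 2.50 TPM in WT libraries (log2 fold change 2.68 ± 0.19, adjusted p = 6.27e-09). Pcgf2, its paralog in canonical PRC1, fell to 52.2 ± 2.62 TPM in the double knockout, against 68.6 ± 4.71 TPM in WT. Pcgf5 rose to 26.4 ± 0.76 TPM in the double knockout, against 9.55 ± 0.56 TPM in WT. Smaller rises were called for Pcgf1 (log2 fold change 0.90) and Pcgf3 (0.44), though neither was called after median ratio or quantile scaling. Pcgf6 fell by 0.21, a call lost with a pseudocount of 0.1 (adjusted p = 0.291 in limma's test). Among the polyhomeotic genes, Phc1 was at 70.7, 71.5 and 70.4 TPM in the double-knockout libraries, against 289, 281 and 290.4 TPM in WT libraries (log2 fold change -2.00 ± 0.08, adjusted p = 8.26e-12). Phc2 (log2 fold change 1.30), Phc3 (0.99) and the Phc-binding Scmh1 (0.83) rose. Scml2 was at 0.98, 2.46 and 1.31 TPM in the double-knockout libraries and 1.49, 1.07 and 1.98 TPM in WT libraries, with overlapping groups.

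Variant PRC1 partner genes gave 9 rises and 3 falls among 18 tested, a share of rises near the 48.6% of all tested genes. Their median of 0.20 turned to -0.15 after median ratio scaling, where 6 rose and 10 fell. Bcorl1 was at 14.1, 16.3 and 14.4 TPM in the double-knockout libraries, against 0.57, 0.77 and 1.15 TPM in WT libraries (log2 fold change 3.13 ± 0.15, adjusted p = 1.04e-10). Its paralog Bcor was at 62.5, 66.0 and 63.2 TPM in the double-knockout libraries, against 14.7, 14.7 and 13.7 TPM in WT libraries. Bcor and Bcorl1 are the scaffold proteins of the Pcgf1 complex. Yaf2, the alternative to Rybp, rose to 18.2 ± 0.46 TPM in the double knockout, against 6.82 ± 0.27 TPM in WT. The falls were smaller, with log2 fold changes of -0.47 for Csnk2a1 (a casein kinase 2 subunit), -0.37 for Wdr5 and -0.36 for Tfdp1, the partner of E2F proteins. Among 13 PRC2 genes, 5 rose and 1 fell (median 0.08), against 48.6% of all tested genes that rose. After median ratio scaling the counts were 3 higher and 9 lower, and after quantile normalization 5 higher and 4 lower, with a median of -0.28 under the first. The accessory subunit gene Aebp2 rose to 86.4 ± 1.49 TPM in the double knockout, against 30.1 ± 1.62 TPM in WT, and Ezh1, the alternative methyltransferase, rose to 38.3 ± 0.21 TPM in the double knockout, against 18.5 ± 1.66 TPM in WT. Phf1 rose by 1.10 on the log2 scale and the histone chaperone gene Rbbp4 fell by 0.32. Of 6 genes for H2A deubiquitylation, Usp16 rose (log2 fold change 0.54, on chromosome 16, not called after median ratio scaling) and Asxl1, which activates an H2A deubiquitinase, fell (-0.76). The median of these 6 was 0.02 and turned to -0.33 after median ratio scaling.

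Developmental transcription factor genes were taken next. All 37 of 37 tested Hox genes rose, but all 37 were under 1 TPM in WT and could hardly fall. Their median log2 fold change was 2.17, beside 0.59 for all tested genes under 1 TPM in WT, of which 55.5% rose. Hoxd13 was at 17.1, 17.6 and 18.6 TPM in the double-knockout libraries, against 0.63, 0.41 and 0.36 TPM in WT libraries (log2 fold change 3.68 ± 0.12, adjusted p = 9.97e-13). Hoxa10 was at 11.5, 11.5 and 12.6 TPM in the double-knockout libraries, against 0, 0.15 and 0 TPM in WT libraries. Hoxb7 was at 11.1, 10.5 and 12.1 TPM in the double-knockout libraries, against 0.29, 0 and 0.11 TPM in WT libraries. Hox genes set position along the body axis, and members from 3 clusters thus reached more than 10 TPM. Hoxa6 and Hoxd3 were in the table but did not pass the filter, with at most 1.14 TPM in any of the 6 libraries.

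The Hox rises ran along whole clusters. Among 14345 tested protein-coding genes with a position, 2768 rose at least 2-fold, and 167 of them stood in 28 runs of 5 or more neighbouring tested genes that all did so. The longest run held 10 genes from Hoxc13 to Hoxc4 and the neighbouring Smug1 (chromosome 15, 102921103 to 103167092). Runs of 9 genes covered Hoxb13 to Hoxb2 (chromosome 11, 96194316 to 96354012), Hoxa3 to Hoxa13 with Evx1 (chromosome 6, 52169062 to 52318378), and Spock2 to Sgpl1 (chromosome 10, 60106219 to 61147703). Hoxd13 to Hoxd1 formed a run of 8 (chromosome 2, 74668310 to 74765142). Bmi1 itself closed a run of 7 that began at Plxdc2 (chromosome 2, 16356304 to 18686629). The runs named here were chosen after their values were seen, and no other arrangement of the genes was drawn. Overlapping or antisense transcripts could not be separated because the strand setting of the counting is not given in the sources used here.

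Other transcription factor families were also measured. GATA factors direct endoderm, trophoblast and heart. Gata4 was at 16.1, 14.7 and 14.9 TPM in the double-knockout libraries, against 0.50, 0.55 and 0.47 TPM in WT libraries (log2 fold change 3.43 ± 0.07, adjusted p = 1.21e-14). Gata2 was at 16.5, 20.8 and 19.6 TPM in the double-knockout libraries, against 0.83, 0.91 and 0.85 TPM in WT libraries. Gata6 reached 9.86 ± 0.82 TPM in the double knockout, against 0.10 ± 0.04 TPM in WT. Of 11 T-box genes, 10 rose and 1 was not called, and 7 of the 11 were under 1 TPM in WT. Tbx1, Tbx15 and Tbx4 had log2 fold changes of 3.72, 2.71 and 2.54. Of 22 Fox genes, 15 were under 1 TPM in WT, and of the 7 at 1 TPM or more 3 rose and 3 fell (median 0.23). In all 18 rose, led by Foxf1 (log2 fold change 3.13), a mesoderm factor. The 3 Fox genes that fell were Foxp1, Foxd3 and Foxi3, and Foxp1 was at 13.1, 12.9 and 13.4 TPM in the double-knockout libraries, against 51.7, 52.1 and 53.2 TPM in WT libraries. All 6 tested Pax genes rose, 5 of them from under 1 TPM, with Pax1 at 5.40 ± 0.12 TPM in the double knockout and 0.13 ± 0.07 TPM in WT.

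Sox and basic helix-loop-helix (bHLH) genes held members called in both directions. Sox10, a neural crest factor, was at 7.98, 8.43 and 7.97 TPM in the double-knockout libraries, against 0.58, 0.33 and 0.28 TPM in WT libraries, and Sox17, an endoderm factor, was at 5.21, 6.24 and 6.85 TPM in the double-knockout libraries, against 0, 0.19 and 0.39 TPM in WT libraries. Sox2 and Sox11 fell, with log2 fold changes of -0.85 and -1.03. In all 11 of 17 Sox genes rose, but 8 of the 17 were under 1 TPM in WT. Of the 9 at 1 TPM or more 4 rose and 4 fell, beside 46.9% of all such genes that rose. The heart and trophoblast factor Hand1 (ENSMUSG00000037335, chromosome 11, 57828705 to 57832818) was at 146, 159 and 157 TPM in the double-knockout libraries, against 2.33, 2.73 and 2.29 TPM in WT libraries (log2 fold change 5.49 ± 0.06, adjusted p = 4.68e-18). Twist1, a mesenchyme factor, reached 15.4 ± 0.40 TPM in the double knockout, against 2.11 ± 0.23 TPM in WT. The neurogenic Neurod1 fell to 2.50, 2.92 and 2.40 TPM in the double-knockout libraries, against 17.99, 18.9 and 16.2 TPM in WT libraries (log2 fold change -2.38 ± 0.11, adjusted p = 4.05e-11). Olig1 and Olig2, neighbours on chromosome 16 that specify oligodendrocytes and motor neurons, fell by 1.34 and 0.87 on the log2 scale. Of 8 neural bHLH genes 5 rose and 3 fell, and their median of 0.49 turned to -0.02 after quantile normalization.

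Trophoblast and epithelial genes were among the largest rises. Of 26 tested trophoblast genes, 24 rose and 2 were not called, with a median log2 fold change of 2.04, and 6 were under 1 TPM in WT. Esx1, an X-linked placental homeobox gene, was at 70.5, 64.5 and 70.3 TPM in the double-knockout libraries, against 1.78, 0.77 and 1.60 TPM in WT libraries (log2 fold change 4.89 ± 0.13, adjusted p = 8.12e-14). Tpbpa, Prl2c2 and Prl3d1, which mark spongiotrophoblast and giant cells, were listed at 0 in all 6 libraries. Keratins 8 and 18 pair in the filaments of simple epithelia. Krt8 was at 446, 421 and 428 TPM in the double-knockout libraries, against 37.3, 37.6 and 35.4 TPM in WT libraries (log2 fold change 3.52 ± 0.05, adjusted p = 7.31e-17). Krt18 was at 622, 629 and 608 TPM in the double-knockout libraries, against 33.4, 40.0 and 34.2 TPM in WT libraries (log2 fold change 4.08 ± 0.06, adjusted p = 1.14e-16). Krt7 was at 30.2, 31.0 and 29.4 TPM in the double-knockout libraries, against 1.43, 1.15 and 1.22 TPM in WT libraries. Krt8 and Krt18 have processed pseudogenes, so some of their reads may be counted elsewhere.

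The simple epithelium list was already expressed in WT, with 1 of 23 members under 1 TPM there, so its members could move either way. Of these 18 rose and 1 fell, with a median of 1.59. The fall was that of Epcam (log2 fold change -0.38), an adhesion protein of embryonic stem cells and epithelia. Tight junction genes also rose, with Cldn4 at 364, 361 and 362 TPM in the double-knockout libraries, against 64.7, 64.5 and 68.0 TPM in WT libraries, and Cldn3 at 39.3 ± 2.62 TPM in the double knockout, against 5.86 ± 0.69 TPM in WT. The placental connexin gene Gjb5 rose by 2.53 on the log2 scale while Gja1, which encodes connexin 43, fell by 0.42. In all, 14 of 17 claudin and connexin genes rose, beside 48.6% of all tested genes. Genes of layered epithelia rose less uniformly, 10 of 14 tested, beside the same 48.6%. Perp, a desmosome protein, reached 102 ± 2.38 TPM in the double knockout, against 14.1 ± 1.51 TPM in WT, while 10 stratified genes that did not pass the filter, Trp63 and Krt5 among them, were at 1.15 TPM or less in all 6 libraries.

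**Figure D3:**
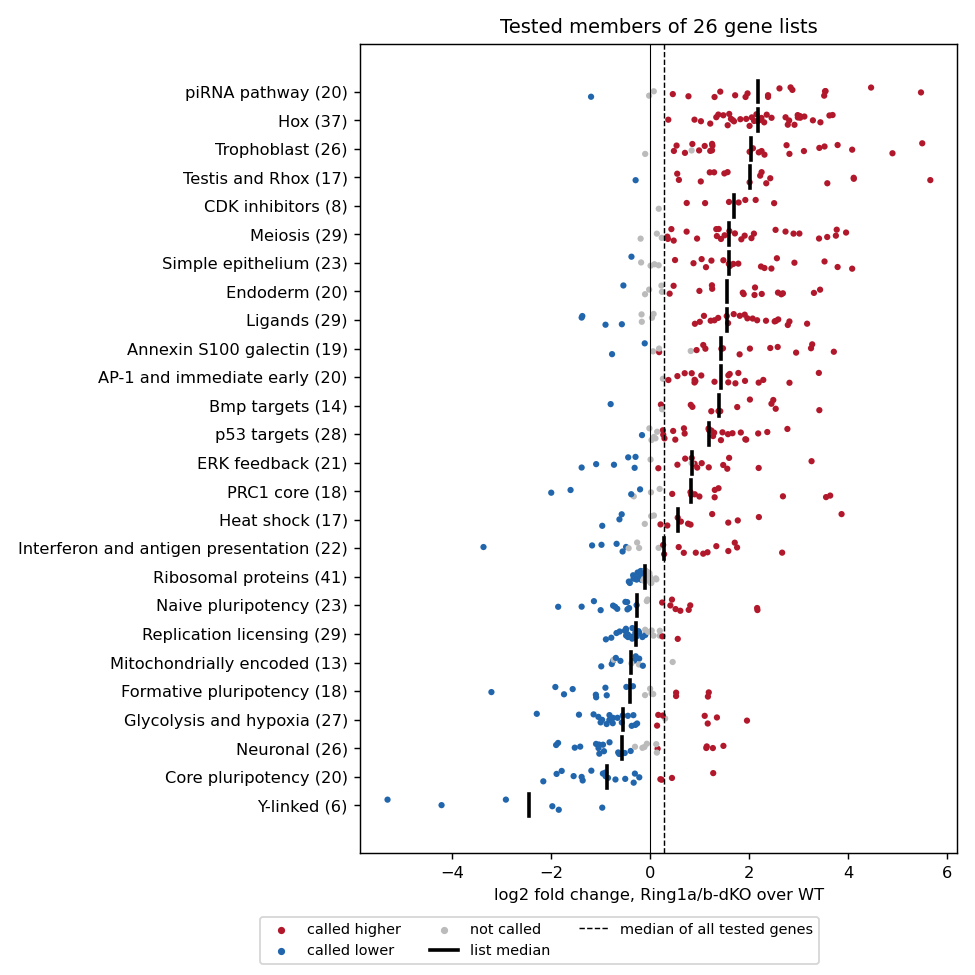
Log2 fold change of Ring1a/b-dKO over WT (x axis) for each tested member of 26 gene lists (rows, number of tested members in brackets, ordered by median), red for members that rose, blue for members that fell and grey for those not called. Black bars are list medians, from 2.17 for the piRNA and Hox lists to -2.45 for the Y-linked list, and the dashed line is the median of all tested genes, 0.28.

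Membrane-binding and matrix genes followed. Annexins bind membranes under calcium control, S100 proteins bind calcium, and galectins bind sugars. Of 19 tested, 14 rose and 2 fell, with a median of 1.44 and 1 member under 1 TPM in WT. Anxa1 was at 116, 118 and 116 TPM in the double-knockout libraries, against 8.66, 7.65 and 7.82 TPM in WT libraries (log2 fold change 3.71 ± 0.06, adjusted p = 9.17e-16). Lgals3 was at 86.2, 87.8 and 82.4 TPM in the double-knockout libraries, against 7.02, 8.29 and 8.67 TPM in WT libraries. S100a6 was at 784, 775 and 771 TPM in the double-knockout libraries, against 110.2, 97.5 and 93.0 TPM in WT libraries. Lgals9 fell by 0.77 on the log2 scale.

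Basement membrane genes split. Collagen IV chains Col4a1 and Col4a2, which share a promoter region on chromosome 8, rose to 49.5 ± 2.66 and 32.1 ± 0.69 TPM in the double knockout, against 8.06 ± 0.45 and 2.80 ± 0.08 TPM in WT. Lama5 rose to 189.6 ± 8.03 TPM in the double knockout, against 61.1 ± 3.01 TPM in WT. Lama1, the alpha chain of the early embryonic laminin, was at 4.75, 3.25 and 4.38 TPM in the double-knockout libraries, against 24.6, 26.8 and 24.97 TPM in WT libraries (log2 fold change -2.38 ± 0.17, adjusted p = 8.92e-09). Fibronectin (Fn1, log2 fold change -1.41) and Col18a1 (-1.05) fell too. The laminin alpha chain genes Lama5 and Lama1 thus moved in opposite directions. Of 14 list members 9 rose and 5 fell, beside 48.6% and 15.8% of all tested genes. Tinagl1, a secreted matrix protein, averaged 76.7 ± 0.35 TPM in the double knockout and 2.46 ± 0.34 TPM in WT.

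Endoderm genes gave 15 rises and 1 fall among 20 tested (median 1.56, 11 under 1 TPM in WT). Of the 9 at 1 TPM or more 6 rose and 1 fell (median 0.47), beside 46.9% of all such genes that rose. Beside the Gata genes, Cited1 reached 21.98 ± 3.02 TPM in the double knockout, against 2.60 ± 0.61 TPM in WT. The list members Hnf4a, Afp, Ttr and Serpina1a did not pass the filter and were at most 0.49 TPM in any of the 6 libraries, which does not speak for other endoderm products. Of 22 contractile genes 11 rose, 4 fell and 7 were not called, a share of rises near that of all tested genes. Myh7 rose to 5.57 ± 0.40 TPM in the double knockout, against 0.52 ± 0.10 TPM in WT, and Myh6 to 26.1 ± 1.20 TPM in the double knockout, against 5.90 ± 1.63 TPM in WT. The median of the contractile genes, 0.43, was -0.10 over those at 1 TPM or more in WT and turned to -0.05 after quantile normalization. Neuronal cytoskeleton genes went the other way, with 15 of 26 lower, beside 15.8% of all tested genes, and 5 higher (median -0.57). Crmp1, a growth cone protein, was at 27.9, 26.1 and 27.9 TPM in the double-knockout libraries, against 108, 103 and 104 TPM in WT libraries (log2 fold change -1.90 ± 0.07, adjusted p = 1.83e-12). Tubb3, neuronal tubulin, was at 40.4, 41.3 and 42.3 TPM in the double-knockout libraries, against 122, 117 and 124 TPM in WT libraries, and Gap43 fell by 1.86 on the log2 scale. Nestin (Nes), a neural progenitor filament, rose by 1.48.

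Germline genes made up much of the top of the ranking. Taf7l, Tex101, Mael, Rhox13 and Mageb4 were among the 12 largest rises, as were Hand1, Esx1, Igf2, Fbp2, Tinagl1 and Krt18. Taf7l (ENSMUSG00000009596, chromosome X, 134460118 to 134476490), a germ cell form of a basal transcription factor subunit, was at 103, 99.2 and 96.5 TPM in the double-knockout libraries, against 0.94, 1.02 and 1.03 TPM in WT libraries (log2 fold change 5.66 ± 0.08, adjusted p = 1.5e-16). No other gene that met the naming rule rose as much. The first windows of 6 germline genes are shown because these genes rose most in the piRNA and meiosis lists, with 250 bases before and 50 after the RefSeq start (GRCm38.p6, 5′ to 3′ on the gene's strand). Capitals mark CACGTG, the E-box bound by Myc, Max and Mga family proteins, and GCGGGA or its reverse complement TCCCGC, the core letters of the E2F6 motif.
Mael, chr1:166238695-166238994, minus strand: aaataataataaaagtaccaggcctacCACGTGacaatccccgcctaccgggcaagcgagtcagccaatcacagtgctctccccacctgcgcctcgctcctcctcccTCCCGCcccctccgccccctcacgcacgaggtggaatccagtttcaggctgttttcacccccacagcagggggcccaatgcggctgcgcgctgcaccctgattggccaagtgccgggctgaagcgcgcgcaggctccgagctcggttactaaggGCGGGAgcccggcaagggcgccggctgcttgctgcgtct
Gpat2, chr2:127424949-127425248, plus strand: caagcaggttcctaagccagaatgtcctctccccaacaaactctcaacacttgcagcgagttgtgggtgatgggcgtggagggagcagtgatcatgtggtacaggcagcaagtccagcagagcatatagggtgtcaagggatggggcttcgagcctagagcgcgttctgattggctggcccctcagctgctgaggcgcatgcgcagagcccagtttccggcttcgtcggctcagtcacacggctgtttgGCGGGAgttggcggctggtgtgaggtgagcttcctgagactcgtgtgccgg
Tex101, chr7:24672001-24672300, minus strand: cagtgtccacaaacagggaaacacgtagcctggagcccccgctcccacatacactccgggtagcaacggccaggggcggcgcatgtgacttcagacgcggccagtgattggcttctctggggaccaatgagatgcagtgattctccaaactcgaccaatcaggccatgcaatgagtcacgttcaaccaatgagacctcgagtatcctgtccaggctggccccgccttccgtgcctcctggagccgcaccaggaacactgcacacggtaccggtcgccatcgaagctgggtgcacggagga
Sycp1, chr3:102936051-102936350, minus strand: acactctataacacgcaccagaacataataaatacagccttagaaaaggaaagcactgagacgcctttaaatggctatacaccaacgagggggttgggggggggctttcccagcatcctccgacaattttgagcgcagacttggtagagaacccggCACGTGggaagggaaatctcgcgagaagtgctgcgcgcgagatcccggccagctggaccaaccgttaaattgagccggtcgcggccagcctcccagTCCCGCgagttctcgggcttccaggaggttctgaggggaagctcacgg
Stra8, chr6:34920698-34920997, plus strand: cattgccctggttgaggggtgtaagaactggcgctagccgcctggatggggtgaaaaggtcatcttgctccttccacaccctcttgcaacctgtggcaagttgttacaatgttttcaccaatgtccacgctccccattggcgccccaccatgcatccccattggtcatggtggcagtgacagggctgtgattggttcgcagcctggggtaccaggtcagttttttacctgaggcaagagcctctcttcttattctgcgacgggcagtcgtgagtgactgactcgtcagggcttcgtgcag
Syce1, chr7:140787805-140788104, minus strand: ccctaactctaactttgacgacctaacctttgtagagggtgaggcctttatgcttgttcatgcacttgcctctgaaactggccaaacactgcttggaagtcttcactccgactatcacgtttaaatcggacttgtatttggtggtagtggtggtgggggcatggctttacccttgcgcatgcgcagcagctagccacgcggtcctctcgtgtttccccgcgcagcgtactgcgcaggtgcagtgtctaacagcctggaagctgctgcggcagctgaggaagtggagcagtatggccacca
Mael and Sycp1 held both motifs, Gpat2 held the E2F6 letters alone, and Tex101, Stra8 and Syce1 held neither.

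Counted over the germline lists, 58 of 66 tested members had a window. CACGTG stood in 27.6% of the 58 windows, beside 7.24% of all 27025 first windows in the table and 10.2% of the 11057 windows of tested protein-coding genes, 77.1% of which had a window. Both strands were searched. GCGGGA or TCCCGC stood in 37.9%, beside 20% and 35.8%, so its share was near that of tested genes. Both motifs stood together in 13.8%, beside 2.05% and 3.88%. Among germline members called higher by at least 2-fold, 35.7% of 42 windows held CACGTG and 35.7% held GCGGGA or TCCCGC, and among the other 16 windows 6.25% and 43.8% did. CACGTG stood in 38.9% of 18 piRNA windows, 28% of 25 meiosis windows and 13.3% of 15 testis and Rhox windows. A match is a description of these letters and does not show binding, and the motifs can share an end base with each other.

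The piRNA pathway silences transposons in germ cells. Of 20 tested members 17 rose and 1 fell (median 2.17, 8 under 1 TPM in WT). Mael, whose window held both motifs, was at 128, 123 and 118 TPM in the double-knockout libraries, against 4.92, 4.63 and 4.39 TPM in WT libraries (log2 fold change 4.46 ± 0.05, adjusted p = 2.45e-17). Tex101, a germ cell surface protein whose window held neither, was at 70.1, 75.01 and 67.0 TPM in the double-knockout libraries, against 1.18, 0.30 and 0.50 TPM in WT libraries (log2 fold change 5.47 ± 0.14, adjusted p = 4.87e-14). Gpat2 reached 24.7 ± 1.38 TPM in the double knockout, against 1.21 ± 0.23 TPM in WT. The member that fell was Tdrd12, at 24.8, 25.8 and 24.9 TPM in the double-knockout libraries, against 58.9, 59.2 and 58.6 TPM in WT libraries. Tdrd12 was thus expressed in WT and was the member called lower.

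Meiosis genes gave 26 rises among 29, with 3 not called (median 1.60, 10 under 1 TPM in WT). Stra8, which licenses entry into meiosis after retinoic acid, was at 56.2, 61.4 and 52.8 TPM in the double-knockout libraries, against 3.36, 2.91 and 2.02 TPM in WT libraries (log2 fold change 3.95 ± 0.13, adjusted p = 1.14e-12). Sycp1, the zipper protein of the synaptonemal complex, was at 51.5, 51.1 and 51.6 TPM in the double-knockout libraries, against 2.58, 2.53 and 3.54 TPM in WT libraries. Syce1, a central element protein, was at 69.7, 81.3 and 78.9 TPM in the double-knockout libraries, against 5.13, 4.67 and 4.51 TPM in WT libraries. The groups were far apart for all 3. Of 17 testis and Rhox genes, 16 rose, among them Rhox13 and Mageb4, at 23.4 ± 1.29 and 21.1 ± 0.50 TPM in the double knockout, against 0.42 ± 0.15 and 0.28 ± 0.02 TPM in WT. Members of the Rhox and Mageb families are close copies, so reads may be divided among them. Of 19 genes of the 2-cell-like state 3 rose and 16 were not called, beside 48.6% of all tested genes that rose, and 17 were under 1 TPM in WT. With the filter on the double knockout and WT alone 2 of the 19 would pass, and both were higher. The others entered the test only through other groups and could hardly be called here, so their count is not set against the germline lists.

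Most core pluripotency genes fell. Of 20 core genes, 16 fell and 4 rose, beside 15.8% of all tested genes that fell and 48.6% that rose. Their median was -0.88, beside 0.28 for all tested genes. Tdgf1, the Nodal co-receptor Cripto, was at 158, 153 and 152 TPM in the double-knockout libraries, against 689, 696 and 694 TPM in WT libraries (log2 fold change -2.16 ± 0.04, adjusted p = 2.56e-15). Nanog was at 37.4, 34.1 and 37.2 TPM in the double-knockout libraries, against 109.5, 110.3 and 104 TPM in WT libraries (log2 fold change -1.55 ± 0.05, adjusted p = 7.01e-13). Pou5f1 fell by 0.91 on the log2 scale and Sox2 by 0.85. Tdh, the threonine dehydrogenase of mouse embryonic stem cells, fell to 72.3 ± 1.56 TPM in the double knockout, against 271 ± 3.63 TPM in WT. Other log2 fold changes were -1.79 for Foxd3, -1.37 for L1td1, -1.19 for Gdf3, -0.96 for Lin28a, -0.90 for Lin28b and -0.70 for Rif1. Utf1 (-0.51), Sall4 (-0.34) and Dppa5a (-0.22) fell less, and the call for Dppa5a was lost without double-knockout replicate 2 or 3 or any 1 WT library (limma's adjusted p 0.0760 to 0.166).

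Of the 4 core genes called higher, Dppa2 was the largest, at 208, 202 and 198 TPM in the double-knockout libraries, against 82.1, 86.3 and 82.3 TPM in WT libraries. Dppa2 and its partner Dppa4, which bind developmental promoters, are neighbours on chromosome 16, and Dppa4 (log2 fold change 0.20) turned to -0.16 after median ratio scaling. Zfp42, a naive marker also called Rex1, had a log2 fold change of 0.44 that was not called after median ratio scaling (0.08), and Trim71 (0.23) turned to -0.13. Naive pluripotency genes split, with 9 higher and 12 lower of 23, beside 48.6% and 15.8% of all tested genes. Tbx3 was at 19.2, 18.2 and 18.9 TPM in the double-knockout libraries, against 5.37, 2.96 and 2.40 TPM in WT libraries, while Gbx2 was at 12.6, 11.4 and 13.1 TPM in the double-knockout libraries, against 45.5, 46.8 and 50.4 TPM in WT libraries. Tfcp2l1 rose by 0.81 on the log2 scale. Genes of the formative state, the step after naive pluripotency, gave 4 rises and 10 falls among 18. Pim2, a kinase, was at 10.1, 9.64 and 9.32 TPM in the double-knockout libraries, against 97.2, 95.4 and 101 TPM in WT libraries (log2 fold change -3.21 ± 0.11, adjusted p = 1.54e-12), while Etv4 rose by 1.18 and Sox3 by 1.16.

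Signalling genes were ordered by pathway. In the Nodal pathway, which patterns the early embryo, the feedback inhibitor Lefty1 was at 34.3, 40.8 and 33.5 TPM in the double-knockout libraries, against 188, 191 and 203 TPM in WT libraries (log2 fold change -2.39 ± 0.12, adjusted p = 1.19e-10). The proprotein convertase genes Pcsk6 and Furin, whose products process Nodal, rose by 1.99 and 1.55. Fgf4, the main FGF of embryonic stem cells, fell to 43.0, 40.3 and 40.7 TPM in the double-knockout libraries, against 111, 113 and 104 TPM in WT libraries. ERK feedback and target genes gave 13 rises and 6 falls among 21, beside 48.6% of all tested genes that rose. Their median of 0.83 was 0.37 after quantile normalization. Phlda1 was at 74.7, 77.5 and 75.9 TPM in the double-knockout libraries, against 6.83, 7.75 and 6.64 TPM in WT libraries (log2 fold change 3.26 ± 0.06, adjusted p = 1.18e-15), and Etv5 fell by 1.09.

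Secreted ligand genes of the Wnt, Fgf, Bmp and Hedgehog families gave 21 rises and 4 falls among 29, 16 of them under 1 TPM in WT. Of the 13 at 1 TPM or more 6 rose and 4 fell (median 0.07), near the 46.9% of all such genes that rose. Wnt9a was at 14.01, 14.7 and 13.8 TPM in the double-knockout libraries, against 0.83, 0.61 and 0.63 TPM in WT libraries, and Wnt7b at 18.7, 18.7 and 18.2 TPM in the double-knockout libraries, against 1.93, 1.65 and 1.78 TPM in WT libraries. Wls, which carries Wnt proteins to the surface, rose by 2.36. Among Wnt targets and antagonists, Cdx1 rose (3.23) while Ccnd1 (-1.25), Notum (-1.39) and Lef1 (-1.10) fell. Bmp4 was at 39.7, 30.1 and 33.9 TPM in the double-knockout libraries, against 6.60, 7.21 and 6.97 TPM in WT libraries (log2 fold change 2.16 ± 0.15, adjusted p = 7.15e-09). Of 14 Bmp target genes 12 rose and 1 fell, including the inhibitor Smad6 at 12.3 ± 0.41 TPM in the double knockout and 1.31 ± 0.28 TPM in WT. In the retinoic acid pathway the synthetic enzyme gene Aldh1a2 and the degrading enzyme gene Cyp26a1 both rose (2.60 and 1.92), while Crabp2, which carries the acid to the nucleus, was at 4.95, 6.30 and 4.69 TPM in the double-knockout libraries, against 22.7, 23.5 and 22.5 TPM in WT libraries.

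Growth-arrest genes were next. Of 8 CDK inhibitor genes, 7 rose and Cdkn1b was not called (12.6 ± 0.58 TPM in the double knockout, 11.04 ± 0.48 TPM in WT). Cdkn2a, whose locus encodes p16 and p19Arf and which the table does not separate, was at 62.0, 66.7 and 72.4 TPM in the double-knockout libraries, against 14.95, 14.6 and 14.1 TPM in WT libraries (log2 fold change 2.13 ± 0.08, adjusted p = 6.41e-12). Cdkn1a, or p21, was at 104, 104 and 99.2 TPM in the double-knockout libraries, against 26.8, 26.4 and 25.8 TPM in WT libraries (log2 fold change 1.92 ± 0.04, adjusted p = 9.88e-15). Cdkn2b beside Cdkn2a rose to 13.4 ± 1.27 TPM in the double knockout, against 3.19 ± 0.23 TPM in WT. The rest had log2 fold changes of 2.50 for Cdkn2c, 1.59 for Cdkn3, 1.11 for Cdkn1c and 0.74 for Cdkn2d. Of 28 p53 targets, 22 rose, beside 48.6% of all tested genes. Btg2 was at 63.7 ± 1.39 TPM in the double knockout and 11.6 ± 0.73 TPM in WT. Plk2 was at 63.3 ± 3.16 TPM in the double knockout and 13.2 ± 0.53 TPM in WT, while Trp53 itself fell by 0.17.

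Most replication genes fell. Of 29 replication licensing and fork genes, 21 fell and 2 rose (median -0.28). Falls made up 19.5% of all genes at 1 TPM or more in WT and 47.2% of those at 100 TPM or more. Mcm3, a subunit of the replicative helicase, was at 164, 157 and 148 TPM in the double-knockout libraries, against 283, 302 and 289.6 TPM in WT libraries, and Pcna at 194, 196 and 191 TPM in the double-knockout libraries, against 307, 309 and 318 TPM in WT libraries. Cdc45, on chromosome 16, rose by 0.56. Of 24 mitosis genes 13 rose and 3 fell on the deposited TPM, beside 48.6% of all tested genes that rose. After median ratio scaling 4 rose and 13 fell, and their median of 0.18 turned to -0.19. Cdc20, the activator of the anaphase complex, reached 463 ± 4.10 TPM in the double knockout, against 284 ± 10.3 TPM in WT. Mycn was at 22.7, 22.6 and 22.4 TPM in the double-knockout libraries, against 210.4, 209.7 and 213 TPM in WT libraries (log2 fold change -3.17 ± 0.06, adjusted p = 2.01e-15). Myc was lower by less (-0.45), and Mxd4, an antagonist of Myc, rose by 1.71.

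Stress-response genes were divided. AP-1 and immediate early genes gave 19 rises among 20 with 1 not called (median 1.44), beside 48.6% of all tested genes that rose. Jun was at 31.4, 31.3 and 31.9 TPM in the double-knockout libraries, against 3.59, 4.35 and 3.06 TPM in WT libraries (log2 fold change 2.81 ± 0.08, adjusted p = 1.34e-13). Ccn1, a matrix protein induced by serum and stretch, was at 206, 207 and 207 TPM in the double-knockout libraries, against 18.5, 18.6 and 18.7 TPM in WT libraries. Atf3 was at 7.91, 8.79 and 13.8 TPM in the double-knockout libraries, against 1.15, 1.49 and 1.09 TPM in WT libraries, with replicate 3 highest. These genes also respond to handling such as trypsin treatment, whose part in the result was not tested. Among chaperones, the small heat shock proteins rose, with Cryab at 56.7, 61.8 and 62.9 TPM in the double-knockout libraries, against 3.47, 3.21 and 2.99 TPM in WT libraries (log2 fold change 3.86 ± 0.08, adjusted p = 1.06e-14), and Hspb1 at 1172, 1188 and 1190.1 TPM in the double-knockout libraries, against 347, 349 and 345 TPM in WT libraries. The mitochondrial chaperonin genes Hspd1 and Hspe1, a divergent pair, fell by 0.97 and 0.58. Ddit3, the stress factor Chop, reached 43.5 ± 1.71 TPM in the double knockout, against 5.71 ± 0.96 TPM in WT, while Psph and Aldh18a1, which make serine and proline, fell by 0.79 and 0.84.

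Most glycolysis genes fell. Of 27 glycolysis and hypoxia genes, 19 fell and 7 rose (median -0.56). Beside them, 19.5% of all genes at 1 TPM or more in WT fell, and 47.2% of those at 100 TPM or more. Pdk1, which blocks pyruvate entry into mitochondria, was at 14.2, 13.6 and 12.8 TPM in the double-knockout libraries, against 69.3, 70.2 and 70.4 TPM in WT libraries (log2 fold change -2.29 ± 0.10, adjusted p = 1.91e-11). Slc16a3, a lactate exporter, fell to 76.0 ± 0.90 TPM in the double knockout, against 169.6 ± 10.8 TPM in WT. The hypoxia target Vegfa moved the other way, at 41.3, 36.3 and 43.0 TPM in the double-knockout libraries, against 9.53, 8.94 and 10.4 TPM in WT libraries. Fbp2, an enzyme of glucose synthesis, was at 47.2, 46.5 and 48.1 TPM in the double-knockout libraries, against 0.86, 0.77 and 0.89 TPM in WT libraries (log2 fold change 4.71 ± 0.07, adjusted p = 1.14e-16). Cholesterol synthesis genes gave 8 rises and 10 falls among 23. After median ratio scaling the counts were 2 higher and 14 lower, and after quantile normalization 3 higher and 13 lower. Mitochondrially encoded genes held 5.00% to 5.42% of TPM in the double knockout and 6.38% to 6.88% in WT, and 9 of 13 fell.

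DNA methylation genes gave 2 rises and 5 falls among 12, beside 15.8% of all tested genes that fell. After median ratio scaling the counts were 2 higher and 10 lower, and after quantile normalization 2 higher and 7 lower. Dnmt3a was at 33.1, 28.0 and 27.9 TPM in the double-knockout libraries, against 100.1, 102 and 102 TPM in WT libraries (log2 fold change -1.74 ± 0.11, adjusted p = 1.28e-09). Dnmt3b was at 168, 165 and 163 TPM in the double-knockout libraries, against 311, 317 and 303 TPM in WT libraries. Their catalytically inactive cofactor Dnmt3l was at 770.4, 731 and 725 TPM in the double-knockout libraries, against 340.0, 333 and 345 TPM in WT libraries (log2 fold change 1.13 ± 0.04, adjusted p = 3.89e-12). The maintenance pair moved little: Dnmt1 fell by 0.22, a call lost without any 1 of the 6 libraries (limma's adjusted p 0.0581 to 0.104), and Uhrf1 was not called (0.06, and -0.31 after median ratio scaling). Tet3 rose by 1.15, and Tdg and Trim28 fell by 0.53 and 0.80. Tet1 (-0.12), Tet2 (-0.07), Zfp57 (0.00) and Setdb1 (0.00) were not called, and Setdb1 turned to -0.36 after median ratio scaling and -0.16 after quantile normalization.

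Imprinted genes included extremes of both directions. Igf2, the paternally expressed growth factor, was at 546, 548 and 536 TPM in the double-knockout libraries, against 18.3, 18.8 and 20.01 TPM in WT libraries (log2 fold change 4.76 ± 0.04, adjusted p = 6.73e-19). Mest, also paternally expressed, was at 1.93, 2.00 and 2.29 TPM in the double-knockout libraries, against 75.4, 77.9 and 74.8 TPM in WT libraries (log2 fold change -4.65 ± 0.06, adjusted p = 2.45e-17). Snrpn, which shares its transcript with Snurf, fell to 54.7 ± 3.26 TPM in the double knockout, against 142 ± 5.45 TPM in WT, and Dlk1 rose to 33.3 ± 4.51 TPM in the double knockout, against 6.59 ± 0.48 TPM in WT. Paternally expressed genes gave 9 rises and 7 falls among 20, a share of rises near the 48.6% of all tested genes. Their median of 0.13 turned to -0.03 and -0.34 under the other scalings. Maternally expressed genes gave 11 rises and 4 falls among 16, with Cdkn1c and Igf2r each higher by 1.11. The files do not separate the parental alleles.

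The largest falls held genes of several kinds. After Eif2s3y the order was Mid1, Mest, Ddx3y, Trh, Enpp3, Glyatl3, Snora73b, Ifitm1, Rragb, Pim2 and Mycn. Trh, which encodes thyrotropin-releasing hormone, was at 10.01, 9.66 and 9.22 TPM in the double-knockout libraries, against 196, 195 and 196 TPM in WT libraries (log2 fold change -4.21 ± 0.09, adjusted p = 8.65e-15). Mid1, an X-linked ubiquitin ligase at the edge of the pseudoautosomal region, was at 1.30, 1.74 and 1.46 TPM in the double-knockout libraries, against 62.6, 61.4 and 63.4 TPM in WT libraries. Rragb, an X-linked GTPase of amino acid sensing, fell to 1.76 ± 0.41 TPM in the double knockout, against 25.4 ± 1.86 TPM in WT. Ifitm1, an interferon-inducible membrane protein, was at 70.9, 80.2 and 67.5 TPM in the double-knockout libraries, against 747, 726 and 809 TPM in WT libraries (log2 fold change -3.37 ± 0.09, adjusted p = 1.68e-13). Enpp3, a nucleotide-cleaving ectoenzyme, and Glyatl3, an acyltransferase, fell to 2.03 ± 0.17 and 0.60 ± 0.27 TPM in the double knockout, against 47.7 ± 1.61 and 23.5 ± 1.93 TPM in WT. Snora73b, a small nucleolar RNA shorter than usual library fragments, had the largest SE of these falls (1.14 on the log2 scale), drawn from all 18 libraries of the fit. It was at 1.63, 4.17 and 1.29 TPM in the double-knockout libraries, against 39.0, 52.5 and 37.7 TPM in WT libraries.

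The Y chromosome, chromosome 16 and, by less, chromosome 11 differed between the groups. Of 15 tested genes on the Y chromosome 13 fell and 0 rose, and all 6 tested members of the Y-linked list fell. The 8 genes of that list summed to 0.21, 0.41 and 0.05 TPM in the double-knockout libraries, against 73.0, 76.8 and 70.5 TPM in WT libraries. Eif2s3y was at 0.04, 0.22 and 0 TPM in the double-knockout libraries, against 40.6, 43.6 and 41.4 TPM in WT libraries (log2 fold change -5.31 ± 0.11, adjusted p = 1.12e-14). Ddx3y, Uty, Kdm5d and Uba1y were at 0.10 TPM or less in every double-knockout library, and Zfy1 was listed at 0 there. The WT libraries therefore hold Y-linked RNA that the double-knockout libraries lack, and this difference between the lines cannot be told apart from the genotype in any gene that depends on it. Among protein-coding genes at 10 TPM or more in WT, the 258 on chromosome 16 had a median log2 fold change of 0.41, with 173 higher (67.1%) and 32 lower, beside a median of 0.12 and 3279 higher (44.1%) over 7428 genes. The 3 double-knockout libraries gave 0.41, 0.41 and 0.42 for chromosome 16. Its 20-megabase bins gave medians of 0.46, 0.47, 0.30, 0.52 (7 genes) and 0.29, so the shift ran along the chromosome. Olig1, Olig2, Gap43 and Etv5 fell although they lie on it. The part of this shift in the changes of Tbx1, Dppa2, Dppa4, Hes1, Cdc45 and Usp16, all on chromosome 16, was not tested. Chromosome 11 had the next highest median, 0.23, with 386 of 702 genes higher (55%) and library values of 0.25, 0.23 and 0.22. Among all tested genes 25.4% rose at least 2-fold on chromosome 11 and 21.7% on chromosome 16, beside 17% in all. Its part in the changes of Hand1, Cbx2, Cbx8 and the Hoxb genes, which lie on chromosome 11, was not tested either.

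**Figure D4:**
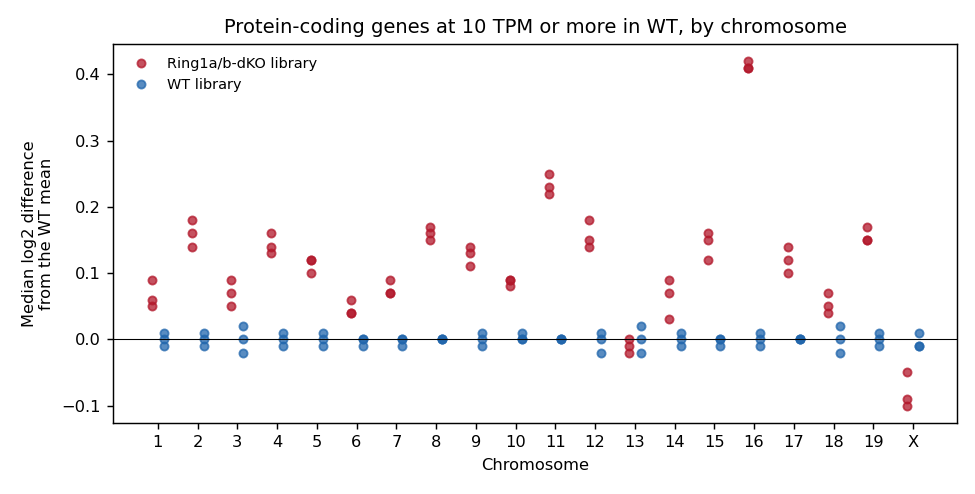
Median over protein-coding genes at 10 TPM or more in WT of the log2 difference from the WT mean (y axis), by chromosome (x axis), for each Ring1a/b-dKO library in red and each WT library in blue. Chromosome 16 stands at 0.41 to 0.42 in the double-knockout libraries, the X chromosome at -0.10 to -0.05, and WT libraries at -0.02 to 0.02.

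The double knockout was next set against Ring1b-KO, which keeps Ring1a, and against Pcgf-4KO, which lacks the variant Pcgf proteins. These comparisons use the same double-knockout libraries as the comparison with WT, so the values stand side by side and are not independent. Against Ring1b-KO 7334 genes rose (41.1%) and 3358 fell (18.8%), 59.9% in all. Against Pcgf-4KO 3952 rose (22.1%) and 2723 fell (15.3%), 37.4% in all. Among called genes the share higher was 68.6% against Ring1b-KO on the deposited TPM and 51.5% after median ratio scaling. Against Pcgf-4KO it was 59.2% on the deposited TPM and 48.7% after quantile normalization. The root mean square log2 distance between libraries averaged 0.815 from the double knockout to Ring1b-KO and 0.597 to Pcgf-4KO, beside 0.407 among double-knockout libraries and 0.942 to WT.

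Epithelial genes set the double knockout apart from Ring1b-KO. Of 23 simple epithelium genes 22 were higher than in Ring1b-KO (median 1.22), beside 7 higher and 6 lower than in Pcgf-4KO (median 0.01). Krt8 was at 56.1, 57.4 and 59.8 TPM in Ring1b-KO libraries and 473, 437 and 455 TPM in Pcgf-4KO libraries. The double-knockout level was thus above Ring1b-KO, with log2 fold change 2.88 ± 0.05, adjusted p = 9.02e-16. It was not called against Pcgf-4KO, with log2 fold change -0.08 ± 0.05, adjusted p = 0.225. Krtdap, Anxa1, S100a6, Lgals1 and Ly6a were among the 6 largest rises over Ring1b-KO that met the naming rule. Anxa1 was at 116, 118 and 116 TPM in the double-knockout libraries, against 7.59, 7.67 and 8.51 TPM in Ring1b-KO libraries (log2 fold change 3.73 ± 0.06, adjusted p = 1.28e-15). Annexin, S100 and galectin genes gave 18 of 19 higher than in Ring1b-KO, and AP-1 genes 19 of 20, beside 41.1% of all tested genes.

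Germline genes gave calls of both directions in these comparisons. Mael was at 128, 123 and 118 TPM in the double-knockout libraries, against 146, 138 and 139 TPM in Ring1b-KO libraries and 149, 154 and 149 TPM in Pcgf-4KO libraries. Its level in the double knockout was slightly below both (log2 fold changes -0.20 and -0.29). The Sycp1 difference from Ring1b-KO was not called, with log2 fold change -0.11 ± 0.16, adjusted p = 0.566. Taf7l was at 27.9, 30.4 and 30.5 TPM in Ring1b-KO libraries, below the double knockout (1.72). Of 20 piRNA genes, 9 were higher and 7 lower than in Ring1b-KO (median 0.04), and 4 higher and 10 lower than in Pcgf-4KO (median -0.27). Over all tested genes 41.1% and 22.1% were higher. Meiosis genes gave 13 higher and 3 lower of 29 against Ring1b-KO (median 0.27), and 10 higher and 5 lower against Pcgf-4KO. Testis and Rhox genes gave 10 higher and 5 lower of 17 against Ring1b-KO (median 0.39), and 4 higher and 9 lower against Pcgf-4KO (median -0.55). Of 19 genes of the 2-cell-like state 18 were lower in the double knockout than in Ring1b-KO and 15 than in Pcgf-4KO. With the filter on the double knockout and WT alone 2 of the 19 would pass, so most were tested only through groups where they are high, and their direction was largely set by the filter. Zscan4f, one of them, was at 0.54, 0.39 and 0.25 TPM in the double-knockout libraries, against 19.9, 20.6 and 18.9 TPM in Ring1b-KO libraries. The Zscan4 copies are nearly alike, so that value may hold reads of others.

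Hox genes were higher in the double knockout than in both. Against Pcgf-4KO 37 of 37 were higher (median 1.42) and against Ring1b-KO 34 (median 0.71). Over all tested genes 22.1% and 41.1% were higher. All 37 were under 1 TPM in WT, and with the filter on the double knockout and WT alone 34 would pass. Most thus pass the filter through double-knockout libraries, where they are high, so their direction was partly set by the filter. Hoxd13 was at 17.1, 17.6 and 18.6 TPM in the double-knockout libraries, against 8.49, 9.96 and 9.92 TPM in Ring1b-KO libraries and 2.20, 1.84 and 2.05 TPM in Pcgf-4KO libraries. Hand1, at 15.9, 16.5 and 17.0 TPM in Ring1b-KO libraries and 172, 173 and 164 TPM in Pcgf-4KO libraries, was higher in the double knockout than in the first (log2 fold change 3.15 ± 0.06, adjusted p = 2.6e-15). Its difference from Pcgf-4KO was not called (log2 fold change -0.14 ± 0.06, adjusted p = 0.071). Mest was lower than in both, with 46.5, 46.9 and 45.7 TPM in Ring1b-KO libraries and 109, 108 and 110.1 TPM in Pcgf-4KO libraries. H19, the maternally expressed neighbour of Igf2, was at 3.96, 5.72 and 4.57 TPM in the double-knockout libraries, against 241, 251 and 244 TPM in Pcgf-4KO libraries (log2 fold change -5.43 ± 0.10, adjusted p = 8.99e-15). Mid1 was at 1.28, 1.45 and 1.22 TPM in Pcgf-4KO libraries and 49.8, 56.1 and 58.4 TPM in Ring1b-KO libraries, so it was low in Pcgf-4KO too. The largest rises over Pcgf-4KO included Pcgf6 and Pcgf1, which are knocked out there, with Meg3, Rian and Mirg of 1 imprinted cluster and Efhc2. The other falls against Pcgf-4KO were Xlr5b, Xlr5a, Xlr5c and Xlr4c, X-linked copies that share reads, and those against Ring1b-KO that met the naming rule were Mid1, Pdcd5-ps, Fkbp6 and Ugt3a2. The median of the 6 tested members of the Y-linked list was 0.01 against Pcgf-4KO and -1.26 against Ring1b-KO, where all 6 were lower in the double knockout. The median of chromosome 16 was 0.63 against Ring1b-KO and -0.04 against Pcgf-4KO, and that of chromosome 11 was 0.32 and 0.01.

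**Figure D5:**
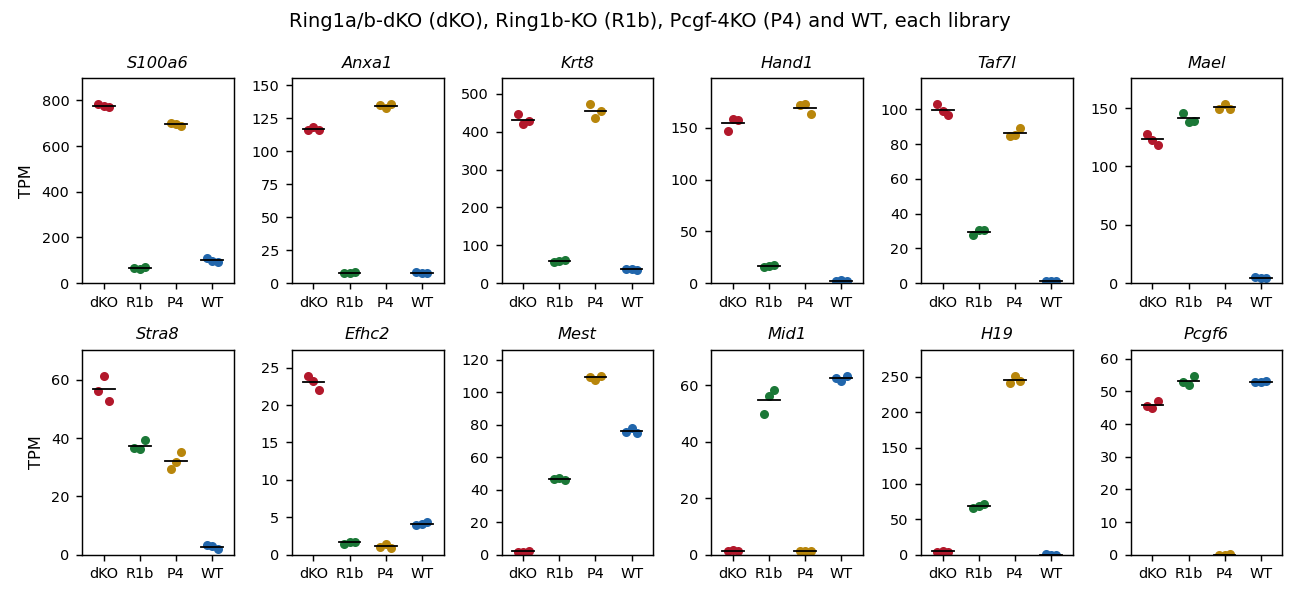
TPM (linear axis from 0) of 12 genes in each library of Ring1a/b-dKO (dKO), Ring1b-KO (R1b), Pcgf-4KO (P4) and WT, with group means as black lines. S100a6, Anxa1, Krt8 and Hand1 stand high in the double knockout and Pcgf-4KO and low in Ring1b-KO and WT, while Mael stands high in all 3 knockout groups.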

How the data were processed

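The authors deposited 1 table of TPM to 2 decimals for 56551 genes in 18 libraries, each summing to 999999.04 to 1000000.32. Read counts cannot be had from TPM, so depth is unknown and intervals for counting error were not made. Tools and builds in the submitters' processing notes are TopHat2 2.1.1, RSEM, edgeR and GRCm38.p5, without roles. The 6 group-mean columns were not used. In some library 86 genes with a median of 5 TPM or more were listed at 0.

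Symbols and positions came from GENCODE M21 (GRCm38) for 55227 genes. Genes reaching 1 TPM in 3 or more of the 18 libraries were tested on log2(TPM + 1), a scale that understates folds of low genes, with limma 3.58.1 in R 4.3.3 (1 mean per group, 12 residual degrees of freedom, trended empirical Bayes), a procedure also tested on simulated data. Members, lists and tests were chosen with earlier results of these data known. Genes named by rule were Ring1 and Rnf2, the 12 largest rises and falls against WT (6 for each other comparison) among called, non-overlapping genes at 5 TPM or more in 1 group, up to 3 each way per list, all members of 5 lists, and members not called; some of these are not reported here. Promoter windows were the first RefSeq windows (GRCm38.p6) of 27025 genes. Alternatives changed the pseudocount, filter, scaling, fit, replicate block and libraries.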

Additional observations from a re-analysis of the deposited data

How the results depend on the processing

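Scaling changed the counts most. Against WT, median ratio scaling gave 5678 genes lower, with 1959 higher and 972 lower by at least 2-fold, and quantile normalization gave 5329 higher and 5730 lower, with 1435 higher and 1111 lower by at least 2-fold. Against Ring1b-KO the genes called lower were 5163 and 5084 under these scalings. The other counts stayed within 1.5 times the reported ones, and leaving out 1 library in turn gave 10770 to 10854 called genes against WT. The replicate block gave 11445 called against WT. The deviations of double-knockout and WT libraries of the same number correlated at -0.034, 0.071 and -0.032, so the numbers were not taken to pair them, and the libraries did not all correlate best with their own number. Ring1 was called lower after quantile normalization (-0.83), and leaving out 1 library gave -0.67 to 0.07. After median ratio scaling Uhrf1 turned to -0.31, Setdb1 to -0.36, Dppa4 to -0.16 and Trim71 to -0.13, and after quantile normalization Scml2 turned to -0.52, Cdkn1b to -0.24 and Setdb1 to -0.16. Of 240 other named genes, 227 were called and 215 of them kept direction and call under every alternative that gave a value. A comparison of promoters of genes raised from under 1 TPM was void, because 139 of 213 protein-coding members (65.3%) had a window, and its alternatives, with 68.8% and 62.2%, were void too. The precision at low levels is limited by the unknown depth.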

Other observations

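Antigen presentation and interferon-linked genes were divided. Tap1, a subunit of the transporter that loads peptides onto class I molecules, was at 20.1, 19.11 and 19.13 TPM in the double-knockout libraries, against 2.20, 1.76 and 2.80 TPM in WT libraries (log2 fold change 2.66 ± 0.18, adjusted p = 3.43e-09). Its partner Tap2 reached 11.5 ± 0.24 TPM in the double knockout, against 2.82 ± 0.23 TPM in WT, and the class I gene H2-D1, which has close copies, reached 55.3 ± 0.26 TPM in the double knockout, against 15.7 ± 0.32 TPM in WT. The Ifitm neighbours on chromosome 7 went the other way, with Ifitm3 at 172 ± 2.53 TPM in the double knockout and 389.5 ± 29.7 TPM in WT and Ifitm2 lower by less (-0.68). Of 22 genes of the list 12 rose and 6 fell, beside 48.6% and 15.8% of all tested genes. The list median of 0.27 turned to -0.08 after median ratio scaling and -0.02 after quantile normalization.

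Notch pathway genes were called in both directions. The targets Hes1 (on chromosome 16) and Nrarp rose to 28.1 ± 1.82 and 8.66 ± 0.43 TPM in the double knockout, against 11.4 ± 2.40 and 2.11 ± 0.33 TPM in WT, and the receptor gene Notch1 rose by 1.13. The ligand genes Dll3, Dll1 and Jag1 fell by 1.14, 0.78 and 0.51. Of 15 genes 8 rose and 4 fell, a share of rises near the 48.6% of all tested genes, with a median of 0.44 that turned to -0.01 after quantile normalization. Among Kruppel-like factors, Klf6 rose to 55.0 ± 0.98 TPM in the double knockout, against 17.4 ± 0.43 TPM in WT, while Klf4, a reprogramming factor, fell to 9.12 ± 0.30 TPM in the double knockout, against 16.04 ± 0.66 TPM in WT. Epithelial to mesenchymal transition genes did not move as 1 group: Snai1 and Snai3 rose (1.19 and 1.64) while Vim, the mesenchymal filament, fell by 1.04. Ribosomal protein genes gave 19 falls and 22 not called among 41, beside 15.8% of all tested genes that fell. Of genes at 100 TPM or more in WT 47.2% fell, with a median of -0.12. The median of the ribosomal protein genes was also -0.12, and it turned to 0.03 after quantile normalization. After median ratio scaling 41 of 41 fell, and after quantile normalization 6 rose and 7 fell.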
